A study of Mus musculus with 6 samples.

Results

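SLC25 proteins are carriers that move metabolites, nucleotides, cofactors and ions across the inner mitochondrial membrane. The family was read here in WT MEFs, cultured mouse embryonic fibroblasts of wild-type genotype, treated with vehicle, with MASM7 (1 μM, 6 h), a small-molecule activator of the mitofusins MFN1 and MFN2, or with MFI8 (20 μM, 6 h), an inhibitor of them. Mitofusins tether and fuse the outer membranes of neighbouring mitochondria. Each of the 3 groups had 2 RNA-seq libraries. The sample labels name the compound only, and the concentrations and times are those the study states for these cells. How long vehicle was applied, and whether the libraries of a group came from separate cultures, are not given in the sources used here, so p-values measure only the spread between these libraries. The 2 compounds were used at different concentrations, so compound and concentration cannot be told apart. Members were the genes whose symbol is Slc25a followed by a number alone and that had 10 or more counts in every library. This rule took 36 of the 47 such genes listed, out of 55291 genes in all, and all 36 were among the 14290 genes that passed the filter on low counts (edgeR's filterByExpr) and were tested.

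SLC25 proteins share a fold built from a repeated pair of membrane helices, and most of them exchange a substrate on the matrix side for another on the cytosolic side. The best known members are the adenine nucleotide translocators, which bring ADP into the matrix and release ATP. Others feed the matrix with phosphate, carry citrate, malate, aspartate and glutamate between compartments, import iron for heme and iron-sulfur clusters, or bring fatty acids in as acylcarnitines. A few members sit elsewhere, such as Slc25a17 in the peroxisome and Slc25a46 in the outer mitochondrial membrane.

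The libraries held between 22791792 and 30677751 counts on genes, of which the 36 carriers took 0.353% to 0.368%. Fibroblast markers summed to between 4012 and 5064 TPM (a level scaled to transcript length and to the same total in every library), led by Vim, Col1a1, Col1a2 and Fn1, with all 8 markers detected and Thy1 under 1 TPM. Markers of leukocytes summed to 13.4 to 16.9 TPM, from Cd68 and Csf1r, with Adgre1 at 0 in every library. Those of endothelium, epithelium and adipocytes each summed to under 1 TPM. Those of skeletal muscle summed to 0.54 to 1.00 TPM with vehicle and MASM7 and 1.43 to 1.53 TPM with MFI8. The muscle sum came mostly from Acta1, at 18 counts or fewer, with Myh3 at 3 counts or fewer and Myog at 0 in every library. Mitochondrially encoded RNA took 1.66% and 1.82% of counts for vehicle, 1.61% and 1.51% for MASM7, and 1.37% and 1.43% for MFI8. The part of these shares in the carrier values was not tested. In bulk RNA, fewer cells of a type and less RNA per cell cannot be told apart.

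The second vehicle library stood apart in how its counts followed the GC content of transcripts. Over the 36 carriers, the deviation of log2 CPM (counts scaled to library size) from the 6-library mean had a Pearson correlation with GC content of -0.76 in that library and of -0.23 in the first vehicle library. It was 0.19 and 0.13 in the MASM7 libraries and 0.39 and 0.38 in the MFI8 libraries. Over all genes tested, the same correlation was -0.29 in the second vehicle library and between -0.05 and 0.22 in the other 5. These are descriptions across genes of the same library, which share its depth and preparation. Results that turn on this library are given with and without it.

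**Figure D1:**
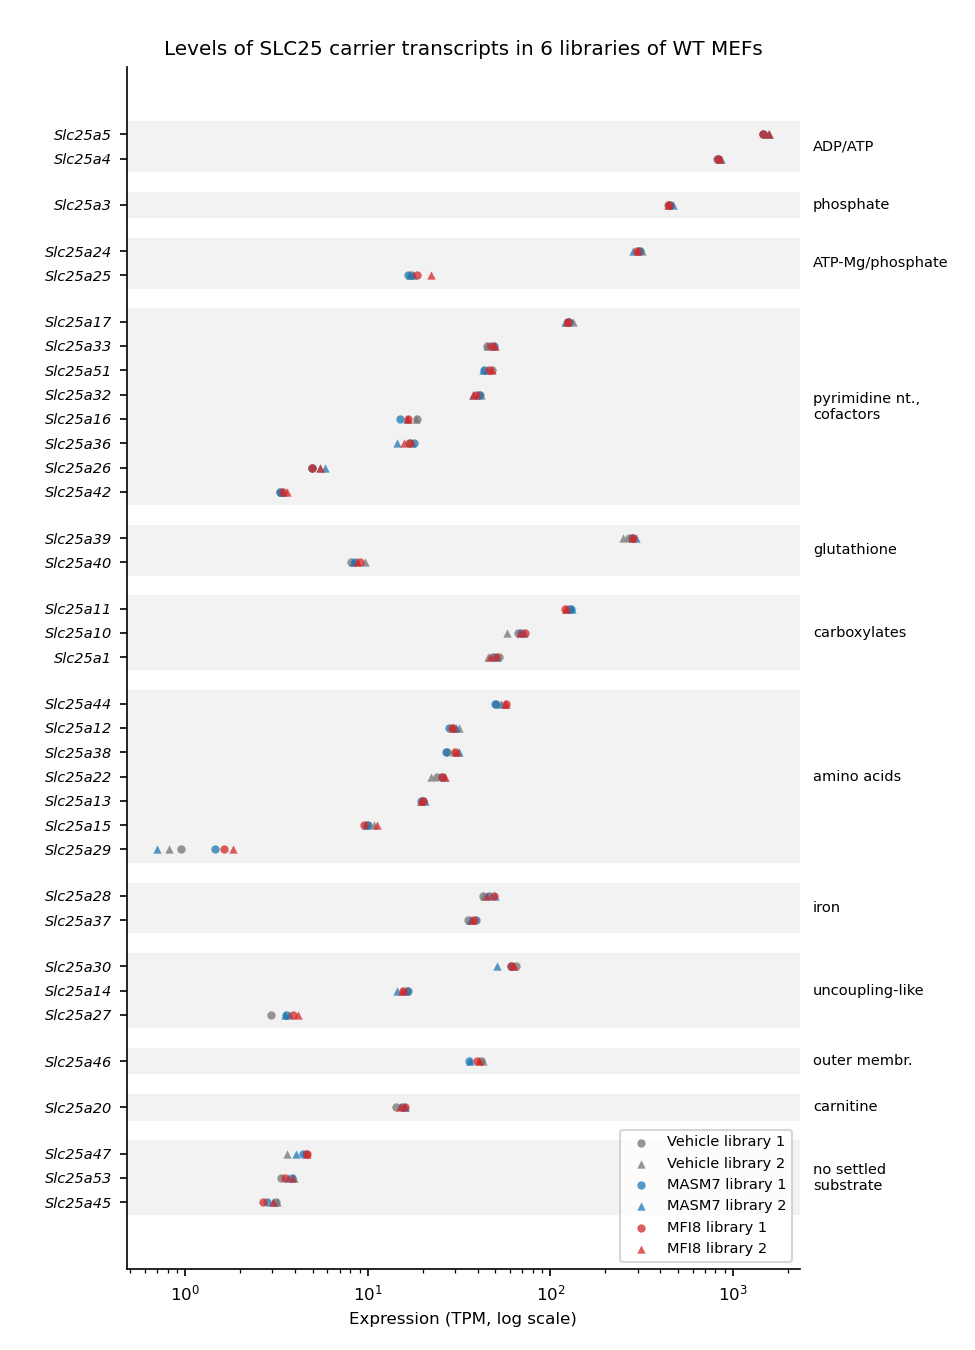
Level of 35 SLC25 carriers (vertical axis, grouped by substrate) in TPM on a log scale (horizontal axis), with 1 point per library and colours for vehicle, MASM7 and MFI8. The levels run from Slc25a29, with a mean of 1.23 TPM, to Slc25a5, with 1514 TPM, and the points of most carriers lie on top of each other.

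The 36 carriers together stood at 4274 to 4461 TPM. Of the mean total of 4362 TPM, 71.1% came from 4 genes: the ADP/ATP translocators Slc25a5 (1514 TPM) and Slc25a4 (837 TPM), the phosphate carrier Slc25a3 (449 TPM), and the ATP-Mg/phosphate carrier Slc25a24 (303 TPM). The 10 highest members held 87.4%. There were 7 members over 100 TPM, 21 between 10 and 100 TPM and 8 between 1 and 10 TPM, with a median of 29.4 TPM. Across the 6 libraries, the highest TPM was under 1.2 times the lowest for 27 members, and it was over 1.5 times the lowest only for Slc25a29.

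By substrate, the 2 ADP/ATP translocators held 53.9% of the family's TPM (2276 to 2435 TPM over the libraries) and the phosphate carrier 10.3% (438 to 470 TPM). Next in order came the 2 ATP-Mg/phosphate carriers (302 to 335 TPM) and the 9 carriers of pyrimidine nucleotides and cofactors (307 to 324 TPM), whose ranges overlapped. The 2 glutathione carriers (258 to 302 TPM) and the 3 carriers of di- and tricarboxylates (225 to 253 TPM) followed, without overlap between them. The 7 amino acid carriers summed to 161 to 176 TPM. The 2 mitoferrins, which import iron, stood at 78.1 to 87.4 TPM and overlapped with the 3 uncoupling-like carriers at 69.3 to 84.7 TPM. The outer membrane member Slc25a46 stood at 35.7 to 42.5 TPM, the carnitine/acylcarnitine carrier Slc25a20 at 14.3 to 15.9 TPM, and the 3 members with no settled substrate (Slc25a45, Slc25a47 and Slc25a53) at 10.7 to 11.6 TPM together.

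Close relatives were unequal in level, and in each pair the same gene was the higher in all 6 libraries. Slc25a5 stood at 1.77 to 1.85 times Slc25a4. The aspartate/glutamate carrier Slc25a12 stood at 1.41 to 1.61 times its relative Slc25a13. Mitoferrin 2 (Slc25a28) stood at 1.17 to 1.38 times mitoferrin 1 (Slc25a37), and the pyrimidine nucleotide carrier Slc25a33 at 2.57 to 3.41 times Slc25a36. The glutathione carrier Slc25a39 stood at 25.8 to 35.4 times Slc25a40, with the lowest ratio in the second vehicle library. The ratio of Slc25a24 to Slc25a25, both ATP-Mg/phosphate carriers, was 17.9 and 18.6 for vehicle, 18.5 and 16 for MASM7, and 16 and 13.5 for MFI8. Reads from near-identical stretches of such relatives could be divided differently by another counting rule.

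The 11 genes outside the rule were at or near the floor of detection. Slc25a18, Slc25a21, Slc25a31, Slc25a41 and Slc25a54 had 0 counts in every library. Slc25a43 and Slc25a48 had 0 to 2 counts, Slc25a2 had 1 to 10 and Slc25a34 had 2 to 11. The ones nearest the threshold were Slc25a23 (5 to 14 counts) and Slc25a35 (6 to 18 counts), while the members nearest to it were Slc25a29 (15 to 41 counts) and Slc25a45 (lowest count 47). Among relatives that carry other symbols, Ucp1 and Ucp3 had 0 or 1 count in each library and Ucp2 had 5 to 14, so the uncoupling proteins proper were at or near 0. The outer membrane relatives Mtch1 and Mtch2 stood at mean levels of 126 and 65.0 TPM, with unadjusted p of 0.374 or more in both comparisons with vehicle.

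Slc25a25 is shown here with the sequence before one of its start sites, because it was the only member under an unadjusted p of 0.05 in both comparisons that involve MFI8. Slc25a36 is shown beside it, since these 2 were the only ones of 28 carriers with a RefSeq promoter entry that held the palindrome TGACGTCA. This is the full cAMP response element bound by CREB and ATF factors, and it was found on reading both strands from 250 bases before to 50 bases after each start. The capitals mark it in the sequences below, given 5′ to 3′ on the strand of the gene (RefSeq, GRCm38.p6, minus strand for both).
Slc25a25, chr2:32424017-32424316: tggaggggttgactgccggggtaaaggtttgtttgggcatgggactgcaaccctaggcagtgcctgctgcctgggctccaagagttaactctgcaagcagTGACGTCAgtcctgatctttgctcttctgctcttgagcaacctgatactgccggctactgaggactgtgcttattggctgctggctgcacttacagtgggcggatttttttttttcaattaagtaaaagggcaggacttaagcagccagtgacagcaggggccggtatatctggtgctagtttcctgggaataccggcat
Slc25a36, chr9:97110992-97111291: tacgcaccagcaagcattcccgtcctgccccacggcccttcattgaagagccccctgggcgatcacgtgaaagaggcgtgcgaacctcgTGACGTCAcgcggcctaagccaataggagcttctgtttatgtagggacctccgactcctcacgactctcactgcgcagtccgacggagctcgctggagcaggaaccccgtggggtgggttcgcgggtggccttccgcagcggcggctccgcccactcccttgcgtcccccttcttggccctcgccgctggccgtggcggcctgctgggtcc
The palindrome begins 150 bases before the start site of Slc25a25 and 161 bases before that of Slc25a36. For Slc25a25 it lies in 1 of 3 promoter entries, at a start site inside the gene's full extent (GRCm38, chr2:32414487-32451445). In all, 2.03% of 27025 genes with such entries hold these letters. The AP-1 site TGANTCA, held by 8.97% of genes, was found in Slc25a11 and Slc25a13. The composite site TGATGNAA of ATF and C/EBP factors (4.51% of genes) and the NRF1 core GCATGCGC (3.05% of genes) were found in 0 of the 28. The 2 carriers that share the palindrome had different values with MFI8: the log2 fold change against vehicle was 0.22 ± 0.087 (SE) for Slc25a25 and -0.09 ± 0.095 for Slc25a36. These matches are descriptions of letters in a window.

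The comparison of MFI8 with vehicle asks which carrier transcripts differed after inhibition of mitofusins. At an adjusted p under 0.05 (edgeR quasi-likelihood test, Benjamini-Hochberg adjustment over 14290 genes), 0 of the 36 carriers passed, and 0% of all genes did. DESeq2 and limma also called 0 carriers. When the model took replicate number as a block, 720 genes (5.04% of all genes) and 0 carriers were called. The median log2 fold change was -0.02 over the carriers and 0.0027 over all genes, with 14 carriers higher and 22 lower. The carriers' median was 0.02 without the second vehicle library and 0.02 without the first MFI8 library, and 0.01 on the scale of log2(TPM + 1), where that over all genes was 0.03. At an unadjusted p under 0.05, 3 carriers were higher (8.33%, against 5.21% of all genes) and 1 was lower (2.78%, against 4.65%). Both MFI8 libraries lay above both vehicle libraries for 10 carriers (27.8%, against 20.9% of all genes) and below both for 11 (30.6%, against 19.3%). The 95% confidence interval of the fold change lay within 1.3-fold of no change for 30 of the 36, and for 7935 of the 14290 genes tested. The smallest p that exact permutation of 2 libraries against 2 can give is 0.333. Without the second vehicle library, 0 carriers had an unadjusted p under 0.05, and without the second MFI8 library also 0.

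Slc25a25 exchanges ATP-Mg for phosphate under the control of calcium. Its CPM was 38.8 and 37.8 for vehicle, 37.4 and 40.1 for MASM7, and 40.8 and 48.2 for MFI8. The second MFI8 library was the highest, and the first was close to the second MASM7 library. The log2 fold change against vehicle was 0.22 ± 0.087 (SE, unadjusted p = 0.030, adjusted p = 0.449). It was 0.09 without the second MFI8 library and 0.33 without the first. Its exons share 379 bases (4.82% of their length) with the oppositely transcribed Naif1, and the library kit does not mark strand, so reads from the shared bases cannot be told apart. Its relative Slc25a24, at 13.5 to 18.6 times its TPM, had a log2 fold change of -0.10 ± 0.053 (unadjusted p = 0.089).

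Slc25a29 carries basic amino acids such as lysine and arginine and was the lowest member of the family. Its counts in the vehicle libraries were 16 and 15, those in the MASM7 libraries 32 and 16, and those in the MFI8 libraries 27 and 41. In CPM it stood at 0.70 and 0.60 for vehicle, 1.08 and 0.53 for MASM7, and 1.18 and 1.33 for MFI8, so that the MFI8 libraries were the highest and the MASM7 libraries lay on either side of vehicle. The log2 fold change was 0.95 (95% confidence interval 0.09 to 1.82, unadjusted p = 0.034, adjusted p = 0.455). On the scale of log2(TPM + 1), which shrinks differences of low genes, it was 0.54. On chromosome 12, Slc25a29 lies head to head with Slc25a47, with 163 bases from the end of the one to the start of the other (GRCm38, GENCODE vM21). Slc25a47 had CPM of 3.90 and 3.02 for vehicle, 3.75 and 3.45 for MASM7, and 3.83 and 3.86 for MFI8, and a log2 fold change with MFI8 of 0.16 ± 0.19, with overlapping groups.

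Slc25a32 brings folate and FAD into the matrix and was the member under the unadjusted threshold that was lower with MFI8. Its CPM was 71.3 and 71.5 for vehicle, 70.4 and 65.7 for MASM7, and 66.5 and 63.3 for MFI8. The MFI8 and vehicle libraries did not overlap, and the MASM7 libraries, 1 of them below the higher MFI8 library, were also below both vehicle libraries. The log2 fold change was -0.14 ± 0.062 (SE, unadjusted p = 0.047, adjusted p = 0.496).

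**Figure D2:**
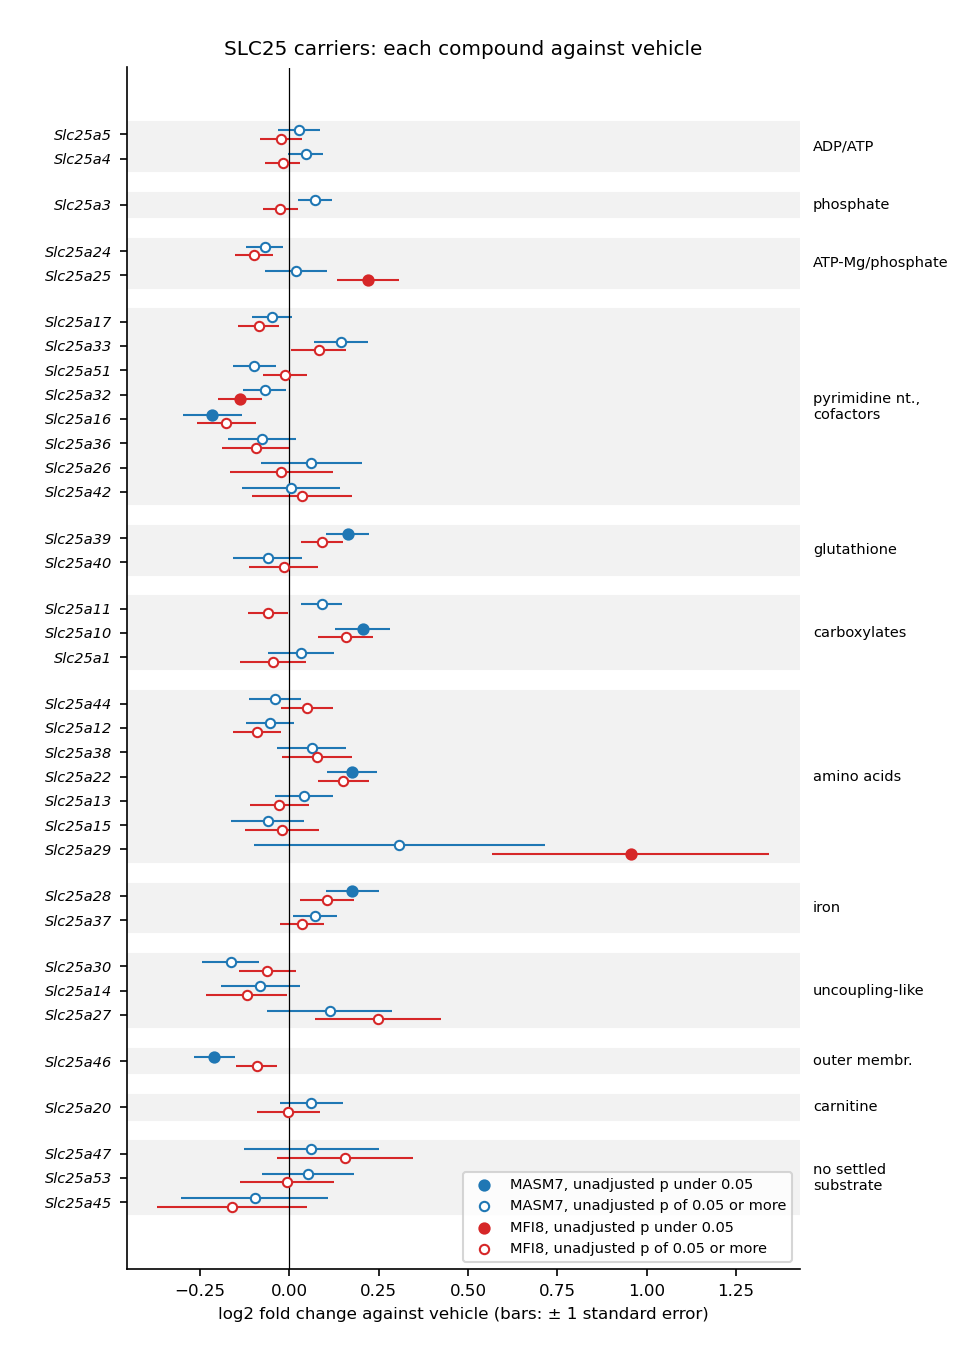
Log2 fold change of 35 carriers (horizontal axis) with MASM7 (blue) and MFI8 (red) against vehicle, grouped by substrate, with bars of 1 standard error and filled points where the unadjusted p was under 0.05. All values plotted but those of Slc25a29 lie within 0.25 of 0, and the filled points are 6 for MASM7 and 3 for MFI8.

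The comparison of MASM7 with vehicle asks the same of the activator, and it shares its vehicle libraries with the one above. Again 0 of the 36 carriers and 0% of all genes passed at an adjusted p under 0.05, and the smallest adjusted p among carriers was 0.466. DESeq2 and limma also called 0 carriers. With the replicate number as a block, 554 genes (3.88%) and 3 carriers were called: Slc25a46 (adjusted p = 0.031), Slc25a39 (0.049) and Slc25a10 (0.049). With offsets for GC content and length beside the block, 0 carriers were called, and DESeq2 with the block also called 0. The median log2 fold change was 0.04 over the carriers and 0.00067 over all genes, with 22 carriers higher and 14 lower. The median over the carriers was -0.0089 without the first vehicle library and -0.0056 without the second MASM7 library. At an unadjusted p under 0.05, 4 carriers were higher (11.1%, against 5.32% of all genes) and 2 were lower (5.56%, against 4.88%). Both MASM7 libraries lay above both vehicle libraries for 9 carriers (25%, against 21.2% of all genes) and below both for 8 (22.2%, against 21.6%). The confidence interval lay within 1.3-fold of no change for 30 carriers, and for 7933 of the 14290 genes tested. Of the 6 carriers under an unadjusted p of 0.05, the count became 2 without the second vehicle library and 2 without the second MASM7 library.

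Slc25a46, an outer membrane protein related to the yeast fusion factor Ugo1, had the smallest p of the family. Its CPM was 64.1 and 64.8 for vehicle, 55.2 and 56.2 for MASM7, and 59.7 and 61.2 for MFI8. The 3 groups did not overlap, with MASM7 lowest and MFI8 between. With MASM7 the log2 fold change was -0.21 ± 0.058 (SE, 95% confidence interval -0.34 to -0.08, unadjusted p = 0.0046, adjusted p = 0.466). It stayed between -0.22 and -0.20 when any library was left out, and was -0.11 when GC content and transcript length were offset. With MFI8 it was -0.09 ± 0.058 (unadjusted p = 0.145). Its exons share 383 bases (7.06%) with B930094E09Rik on the other strand, which had 11 to 26 counts.

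Slc25a16, which has been linked to the supply of coenzyme A, was the other member under the threshold with lower values. Its CPM was 25.4 and 24.7 for vehicle, 20.6 and 22.5 for MASM7, and 22.2 and 22.1 for MFI8. All 4 treated libraries were below both vehicle libraries. The log2 fold change was -0.22 ± 0.083 (SE, unadjusted p = 0.027) with MASM7 and -0.18 ± 0.083 (unadjusted p = 0.061) with MFI8.

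Of the 4 carriers with higher values with MASM7, Slc25a39 brings glutathione into the matrix. Its CPM was 211 and 193 for vehicle, 219 and 233 for MASM7, and 216 and 214 for MFI8. The log2 fold change with MASM7 was 0.16 ± 0.059 (SE, unadjusted p = 0.021). Slc25a10 exchanges malate and succinate for phosphate, and its CPM was 65.0 and 55.8 for vehicle, 68.2 and 70.9 for MASM7, and 69.2 and 65.5 for MFI8. Its log2 fold change was 0.20 ± 0.077 (SE, unadjusted p = 0.024). In both genes the second vehicle library was the lowest of the 6, and without it the log2 fold changes were 0.10 for each. Without the first vehicle library they were 0.32 for Slc25a10 and 0.23 for Slc25a39.

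Slc25a22 imports glutamate with a proton, and its CPM was 40.8 and 37.4 for vehicle, 43.5 and 44.6 for MASM7, and 42.4 and 44.2 for MFI8. Its log2 fold change with MASM7 was 0.17 ± 0.070 (SE, unadjusted p = 0.033), and 0.11 without the second vehicle library. Slc25a28, mitoferrin 2, had CPM of 45.6 and 45.4 for vehicle, 49.0 and 53.7 for MASM7, and 51.3 and 46.6 for MFI8. All 4 treated libraries were above vehicle, with a log2 fold change of 0.18 ± 0.074 (SE, unadjusted p = 0.039) with MASM7 and 0.11 ± 0.074 (unadjusted p = 0.187) with MFI8. Without the second MASM7 library the first of these was 0.11.

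**Figure D3:**
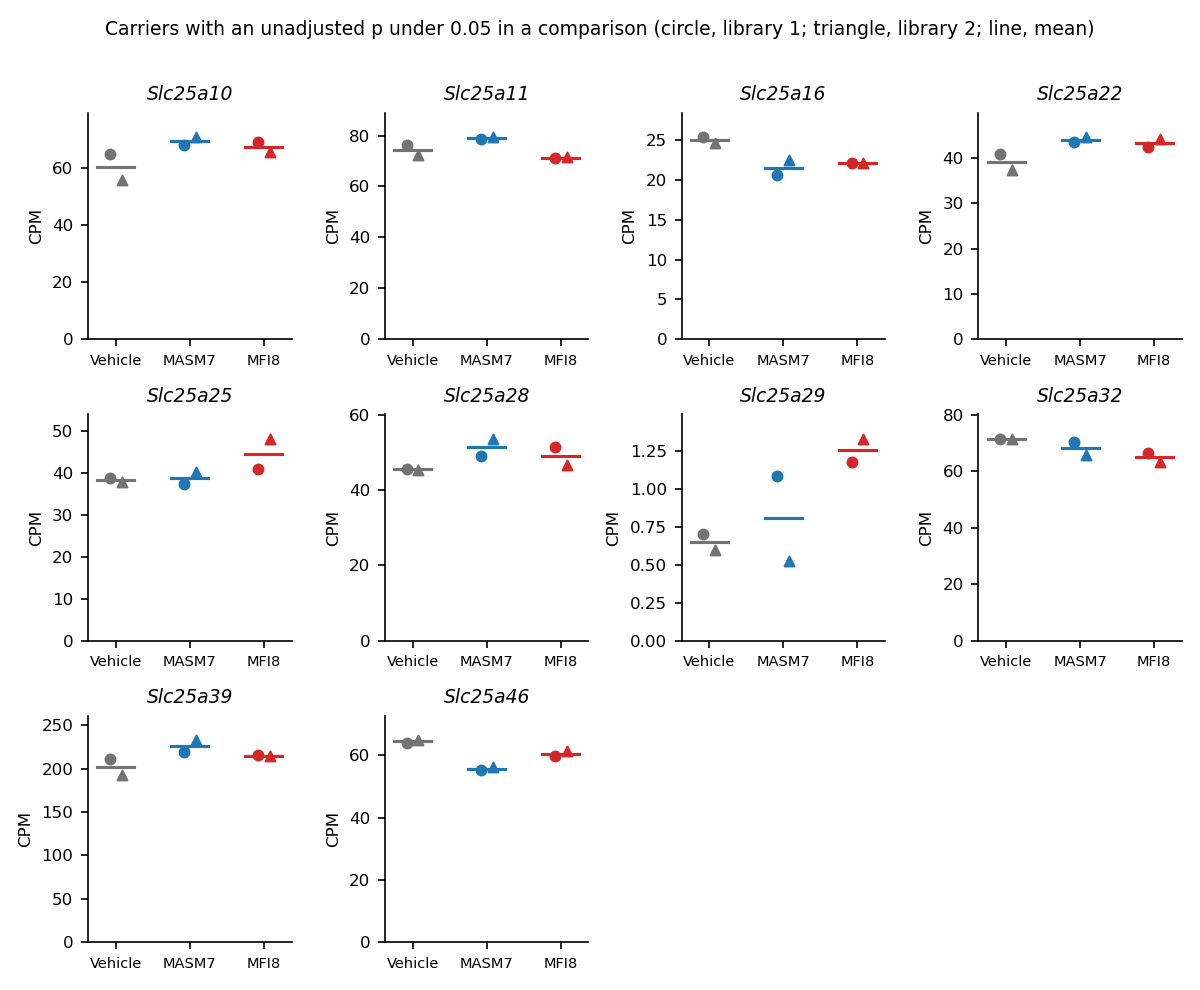
CPM (vertical axes, from 0) of 10 carriers with an unadjusted p under 0.05 in a comparison, for vehicle, MASM7 and MFI8, with a circle for library 1, a triangle for library 2 and a line at the group mean. Slc25a46 shows 3 separate groups with MASM7 lowest, while in Slc25a10 and Slc25a39 the second vehicle library lies apart from the first.

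Between the compounds, at the concentrations used, 0 of 36 carriers and 0% of all genes passed at an adjusted p under 0.05, with a smallest adjusted p of 0.639 among carriers. DESeq2 and limma also called 0 carriers. The replicate block called 439 genes (3.07%) and 0 carriers, and the block with offsets for GC content and length called 675 genes (4.72%) and 1 carrier, Slc25a3 (log2 fold change -0.13, adjusted p = 0.032). With MFI8 set against MASM7, the carriers had a median log2 fold change of -0.04 and all genes one of -0.0015, with 14 carriers higher with MFI8 and 22 lower. On the scale of log2(TPM + 1), fitted in limma, the median over the carriers was 0.0069, where that over all genes was 0.04. At an unadjusted p under 0.05, 1 carrier was higher (2.78%, against 4.23% of all genes) and 1 was lower (2.78%, against 2.95%). The libraries did not overlap for 9 carriers higher with MFI8 (25%, against 19.6% of all genes) and 6 lower (16.7%, against 19.6%). The confidence interval lay within 1.3-fold of no difference for 30 carriers, and for 8169 of the 14290 genes tested.

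The lower one was Slc25a11, which exchanges oxoglutarate for malate in the malate-aspartate shuttle. Its CPM was 76.2 and 72.5 for vehicle, 78.7 and 79.4 for MASM7, and 71.1 and 71.4 for MFI8. Vehicle lay between the compounds, with the log2 fold change at 0.09 ± 0.056 for MASM7 and -0.06 ± 0.057 for MFI8. The direct difference of MFI8 from MASM7 was -0.15 ± 0.056 (SE, unadjusted p = 0.023, adjusted p = 0.639). Its exons share 189 bases (8.92%) with Rnf167 on the other strand, which had 387 to 522 counts. The higher one was Slc25a25, at 0.20 ± 0.086 (unadjusted p = 0.041, adjusted p = 0.667), which was 0.07 without the second MFI8 library and 0.32 without the first.

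The most abundant carriers stood close to vehicle with either compound. Slc25a5 had CPM of 684 and 722 for vehicle, 690 and 742 for MASM7, and 667 and 717 for MFI8, with log2 fold changes of 0.03 ± 0.059 with MASM7 and -0.02 ± 0.059 with MFI8. In every group its second library was the higher. Slc25a4 had CPM of 547 and 557 for vehicle, 558 and 582 for MASM7, and 537 and 553 for MFI8, with log2 fold changes of 0.05 ± 0.049 and -0.02 ± 0.049. Slc25a3 had CPM of 692 and 700 for vehicle, 713 and 749 for MASM7, and 687 and 681 for MFI8. Its groups did not overlap, and its log2 fold changes were 0.07 ± 0.048 with MASM7 (unadjusted p = 0.173) and -0.03 ± 0.048 with MFI8 (unadjusted p = 0.610). The confidence intervals of these 6 fold changes all lay within 1.3-fold of no change.

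Among the other carriers of nucleotides and cofactors, values against vehicle were small for both compounds. Slc25a33 had log2 fold changes of 0.14 ± 0.076 with MASM7 and 0.08 ± 0.077 with MFI8, opposite in sign to those of Slc25a36 (-0.08 ± 0.094 and -0.09 ± 0.095). When GC content and transcript length were offset, the values with MASM7 had the same sign, 0.07 for Slc25a33 and 0.02 for Slc25a36. Those with MFI8 were then 0.05 and -0.04. Slc25a51, the NAD+ carrier, was at -0.10 ± 0.061 with MASM7 and -0.01 ± 0.061 with MFI8. The peroxisomal Slc25a17 was at -0.05 ± 0.056 and -0.09 ± 0.057. Slc25a26, which carries S-adenosylmethionine, and Slc25a42, a coenzyme A carrier, lay between -0.02 and 0.06 with either compound, with standard errors of 0.14. The exons of Slc25a26 share 144 bases (3% of their length) with Lrig1 on the other strand, which had 5349 to 8288 counts where Slc25a26 had 152 to 244.

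Among amino acid carriers not yet described, the log2 fold changes lay between -0.09 and 0.08. The largest in size was that of the aspartate/glutamate carrier Slc25a12 with MFI8 (-0.09 ± 0.068), and its relative Slc25a13 was at -0.03 ± 0.083. The ornithine carrier Slc25a15, the glycine carrier Slc25a38 and the branched-chain amino acid carrier Slc25a44 had unadjusted p of 0.447 or more in both comparisons with vehicle. The citrate carrier Slc25a1 stood at 0.03 ± 0.092 with MASM7 and -0.05 ± 0.093 with MFI8. Slc25a40 stood at -0.06 ± 0.097 and -0.02 ± 0.097, and mitoferrin 1 at 0.07 ± 0.061 and 0.03 ± 0.062.

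The uncoupling-like carriers Slc25a14, Slc25a27 and Slc25a30 resemble the uncoupling proteins in sequence. Slc25a30 had CPM of 84.7 and 79.4 for vehicle, 79.2 and 67.2 for MASM7, and 77.2 and 80.0 for MFI8. The second MASM7 library was far below the other 5, and the log2 fold change with MASM7 was -0.16 ± 0.079 (unadjusted p = 0.065). Slc25a27 was at 0.11 ± 0.18 with MASM7 and 0.25 ± 0.18 with MFI8, and Slc25a14 at -0.08 ± 0.11 and -0.12 ± 0.11. The carnitine/acylcarnitine carrier Slc25a20 had CPM of 19.7 and 21.7 for vehicle, 21.2 and 22.1 for MASM7, and 21.4 and 20.1 for MFI8. All its groups overlapped, with log2 fold changes of 0.06 ± 0.088 and -0.0025 ± 0.089. Slc25a45 and Slc25a53 had unadjusted p of 0.461 or more with either compound.

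The carriers' values against vehicle followed the GC content of their transcripts, which ran from 39.4% to 60.6%. Of the 16 carriers with a GC content of 50% or more, 14 were higher with MASM7 and 11 with MFI8. Of the 20 under 50%, 8 were higher with MASM7 and 3 with MFI8. The median log2 fold change with MASM7 was 0.08 in the GC-rich carriers and -0.06 in the others, and over all genes it was 0.08 and -0.06 by the same split. With MFI8 the medians were 0.08 and -0.03 over the carriers, and 0.05 and -0.04 over all genes. Over the 36 carriers the correlation of the log2 fold change with GC content was 0.70 (Pearson) and 0.67 (Spearman) for MASM7 and 0.55 and 0.64 for MFI8. Over the 13989 tested genes with a GC value it was 0.27 and 0.44 for MASM7 and 0.16 and 0.30 for MFI8. Without the second vehicle library, the correlation over the carriers was 0.35 (Pearson) and 0.36 (Spearman) for MASM7 and 0.37 and 0.35 for MFI8, against 0.09 and 0.04 (Pearson) over all genes. Of the GC-rich carriers, 13 were then higher with MASM7 and 11 with MFI8, and of the others 8 and 8. Without the first vehicle library, the correlation was 0.79 and 0.74 for MASM7 and 0.64 and 0.75 for MFI8, against 0.24 and 0.17 (Pearson) over all genes.

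**Figure D4:**
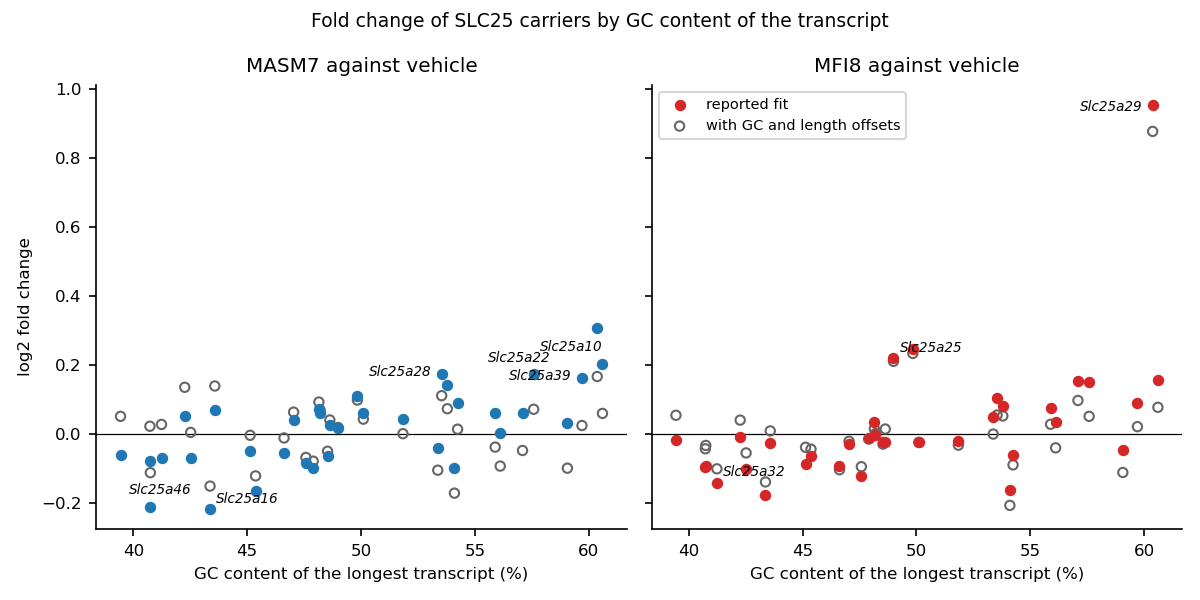
Log2 fold change against vehicle (vertical axis) of 35 carriers by the GC content of the longest transcript in percent (horizontal axis), for MASM7 on the left and MFI8 on the right, with filled points for the reported fit and open points for the fit that offset GC content and transcript length. The filled MASM7 points climb from left to right (Pearson 0.70 over the 36 members) and the open ones do not (0.03).

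In a fit that offset GC content and transcript length, added after the data were seen, the Pearson correlation was 0.03 for MASM7 and 0.35 for MFI8 over the carriers, and -0.02 and -0.0039 over all genes. The members under an unadjusted p of 0.05 were then Slc25a3 for MASM7 (log2 fold change 0.14), and 2 for MFI8, among them Slc25a25 (0.21). The values of Slc25a39, Slc25a10 and Slc25a22 with MASM7 became 0.03, 0.06 and 0.07. Slc25a28 became 0.11, Slc25a46 -0.11 and Slc25a16 -0.15. With MFI8, Slc25a32 went from -0.14 to -0.10 (unadjusted p = 0.114) and Slc25a29 from 0.95 to 0.88 (unadjusted p = 0.055). With MASM7, Slc25a32 changed sign, from -0.07 to 0.03.

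Enzymes and transporters that work with the carriers were read from lists chosen by function. Of all genes tested, 10.2% had an unadjusted p under 0.05 for MASM7 against vehicle and 9.86% for MFI8. Of 4 enzymes of the malate-aspartate shuttle, 1 was under an unadjusted p of 0.05. This was Mdh2, the mitochondrial malate dehydrogenase, at a log2 fold change of 0.16 with MASM7 (unadjusted p = 0.022). Its CPM was 487 and 459 for vehicle, 505 and 552 for MASM7, and 510 and 495 for MFI8. The second vehicle library was the lowest. The difference of MASM7 from vehicle in log2 CPM was 0.05 between the first libraries and 0.26 between the second. With MFI8 its log2 fold change was 0.08 ± 0.058 (unadjusted p = 0.179). Of 4 tested genes listed with the carnitine shuttle, 1 was under an unadjusted p of 0.05. This was Cpt1c, at a log2 fold change of 0.22 with MFI8 (unadjusted p = 0.048) and 0.20 with MASM7 (unadjusted p = 0.067). Between the compounds its log2 fold change was 0.02. The others, Cpt1a, Cpt2 and Crat, had unadjusted p of 0.352 or more in both comparisons with vehicle. Of Cs and Acly, which make or use citrate, and Me1, read with them, 0 were under an unadjusted p of 0.05 in either comparison with vehicle. The same held for 4 genes of mitochondrial iron use (Fech, Alas1, Iscu and Abcb10). It also held for 8 carriers of other families (Mpc1, Mpc2, the sideroflexins Sfxn1 to Sfxn5, and Letm1). None of the genes named in this paragraph was under that threshold between the compounds, and none passed with adjustment over all genes.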

How the data were processed

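Polyadenylated RNA of 6 libraries of WT MEFs was sequenced, 2 for each of vehicle, MASM7 and MFI8. Per the study's methods, the authors trimmed reads (Trimmomatic), mapped them on GRCm38 (STAR), and deposited raw counts of reads on the exons of each gene from featureCounts. The deposited normalized signal equalled each library's raw counts over its DESeq2 size factor, to within 5e-04, and the TPM values were used as deposited. Annotation release and strand setting are not given in the sources used here.

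All 6 libraries' raw counts entered 1 fit in edgeR 4.0.16 (R 4.3.3, TMM, filterByExpr, 1 coefficient per group), with tests over 14290 genes by the quasi-likelihood method and Benjamini-Hochberg adjustment at 0.05. The standard error was taken as |log2 fold change|/√F. TMM factors entered CPM, and log2 CPM had a prior count of 2. Libraries of 22791792 to 30677751 counts gave a common dispersion of 0.00394, and the fit was tested on simulated data. GC content, coordinates and exon overlap came from GENCODE vM21 (97.9% of genes tested matched by symbol), and promoters from RefSeq.

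The members and lists were chosen with earlier results of these data known. Carriers were named with every value where the unadjusted p was under 0.05 in a comparison, for the 3 highest by TPM, and for the smallest p against vehicle in each substrate group. Companion genes were named under the same threshold. Slc25a36 and Slc25a24 were added after their values were seen. Alternatives were other scalings and filters, only the groups compared, the replicate block, DESeq2 1.42.0, limma 3.58.1 on log2(TPM + 1) and log2(TPM + 0.1) where 2 libraries reached a TPM of 1, and leaving out each library. Offsets for GC content and length (lowess per library, span 0.3) and combinations with the block were added after seeing the data. The values of 1 carrier and 3 companion genes are not reported here singly. The carrier stays in the counts, medians and sums over the 36 members and is not plotted.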

Additional observations from a re-analysis of the deposited data

How the results depend on the processing

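Of 18 alternatives to each comparison, 15 were planned and 3 were added after seeing the data. The 12 fold changes of carriers under an unadjusted p of 0.05 kept their sign in all 216 alternative values. All genes called at an adjusted p under 0.05 (0 in the reported edgeR fit) numbered, for MFI8 against vehicle, MASM7 against vehicle and MFI8 against MASM7, 256, 127 and 168 with no filter beyond 1 count, 48, 2 and 29 with DESeq2, 0, 1 and 2 with only the groups compared, and 0 to 26, 0 to 2 and 0 to 24 when a library was left out. With the replicate block they were 720, 554 and 439, with GC content and length offsets and the block 595, 152 and 675, and with DESeq2 and the block 220, 205 and 106. The block also called 3 carriers for MASM7 against vehicle: Slc25a46 (log2 fold change -0.21, adjusted p = 0.031), Slc25a39 (0.16, adjusted p = 0.049) and Slc25a10 (0.21, adjusted p = 0.049). For MASM7 against vehicle, DESeq2 with the block called 0 carriers, and so did the offsets with the block. Between the compounds, the offsets with the block called 1, Slc25a3 (-0.13, adjusted p = 0.032). Only 2 pairs exist per comparison and no source ties the numbers to a shared batch. The correlation of the differences between libraries 2 and 1 was 0.19, 0.15 and 0.17 over all genes, and 0.25, 0.13 and -0.09 over the carriers, for vehicle with MASM7, vehicle with MFI8 and MASM7 with MFI8. Carriers under an unadjusted p of 0.05 numbered 4 for MFI8 against vehicle, and 8 with the block, 0 with DESeq2, 2 with limma at either pseudocount, 2 with the offsets, 1 with DESeq2 and the block, and 0 to 4 with a library left out. For MASM7 against vehicle they numbered 6, and 3 with DESeq2, 1 with the offsets, 3 with the offsets and the block, 3 with DESeq2 and the block, and 2 to 6 with a library left out. Between the compounds they numbered 2, and 4 with no filter, 4 with the block, 0 with DESeq2, 6 with the offsets and the block, and 0 to 2 with a library left out. In the reported fit these were 11.1%, 16.7% and 5.56% of the carriers, against 9.86%, 10.2% and 7.18% of all genes, in the same order. The share of all genes is not given for the alternatives, so their counts do not set the carriers apart from other genes. With limma at pseudocounts of 1 and 0.1, the median over the carriers was 0.0069 and 0.0073 between the compounds and 0.011 and 0.012 for MFI8 against vehicle, the opposite sign to the reported values. With a library left out it was -0.022 to 0.020 for MFI8 against vehicle, -0.0089 to 0.037 for MASM7 against vehicle, and -0.038 to -0.0039 between the compounds. The causes were not tested. No scaling moved the median of all genes by over 0.05 on the log2 scale. The counts of Slc25a29, 15 to 41, limit what can be said of it.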
